A study of Rattus norvegicus with 6 samples.

Results

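Immediate early genes of neuronal activity are described here in the rat striatum, the part of the basal ganglia that receives cortical input, after exposure to manganese. The set holds 10 genes of the 32552 in the count tables: Fos, Fosb, Junb, Egr1, Egr2, Klf4, Npas4, Nr4a1, Arc and Dusp1. They were taken by Ensembl ID, with the row kept only where its chromosome was the one given for the gene. All 10 rows passed, and the RefSeq gene table of the GRCr8 build put each of the 10 symbols on the same chromosome. The span of Fos was 2867 bases in the count tables and in RefSeq, and that of Dusp1 was 2793 and 2794 bases. The widest gap was at Npas4, with 4765 bases in the count tables and 17399 in RefSeq. The set was chosen by CPM of control against Mn-exposed samples, CPM being the counts of a gene relative to the scaled library total. The differences between the groups are therefore given as descriptions. The calls of fits over all genes are counted in 1 place, beside their share over all genes, and support nothing here.

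The 6 libraries came from the striatum of male Sprague-Dawley rats, 3 labelled control and 3 labelled Mn-exposed. Controls (1, 2 and 4 in the labels) were given 0.9% NaCl into the peritoneal cavity, and Mn-exposed rats (13, 14 and 17) MnCl2 at 25 mg/kg, over 15 days. The labels do not say that each library is a separate rat, so SDs measure the spread between these libraries, which may be technical. The age of the rats and the time from the last injection to collection are not stated in the labels. Library totals ran from 21754379 to 32569760 counts. Transcripts of mitochondrial DNA (mtDNA) took 13.9% to 16.6% of counts in controls and 8.64% to 13.8% in Mn-exposed libraries, with the lowest share in Mn-exposed 14. Genes are listed by ID without symbols, so markers of striatal cell types and other activity-regulated genes were not analysed here. In whole tissue, fewer cells of a type and less RNA per cell cannot be told apart.

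Immediate early genes are transcribed soon after a neuron is excited, without need for new protein synthesis. Calcium entry and kinase cascades act on factors already bound to their promoters, among them CREB at the cyclic AMP response element (CRE) and SRF at the serum response element, whose core is the CArG box. Many of the products are transcription factors that switch on a later set of genes, while others act at the synapse or shut the signal off. In the striatum such genes respond to dopamine and glutamate, and Fos and Arc are widely used as marks of recently active projection neurons.

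All 10 genes passed the filter on low counts, with 74 to 6857 counts per library. Counting error alone is 11.6% at the lowest of these counts and 1.21% at the highest. Gene positions below are 1-based on Rnor_6.0. The genes were compact: their spans ran from 1783 bases (Junb) to 14459 (Nr4a1), with a median of 4079 against 20548 over the 15252 genes fitted. They had a median of 4 merged exons against 9 over all genes fitted, while their exonic length was similar (median 2560 against 2341 bases). None of the 10 overlapped another annotated gene, and the nearest neighbour lay 2880 bases away, at Junb.

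RefSeq promoter windows on the GRCr8 build, from 250 bases before the start to 50 after it, were found for 8 of the 10 genes. A search on both strands covered the CRE (TGACGTCA), its core (TGACG, which the CRE contains), the CArG box, the EGR site (GCGGGGGCG), the AP-1 site (TGACTCA) and the TATA box (TATAAA). The CRE core was present in 5 of 8 windows (Dusp1, Egr1, Egr2, Junb and Nr4a1) and in 21.2% of the 33469 windows in the table. A CArG box was present in Egr1 and Egr2, against 1.64% of all windows, and a full CRE in Dusp1, against 1.83%. Nr4a1 alone of the 8 had an EGR site, which 2.73% of all windows hold. The AP-1 site was in 0 of 8 windows and in 4.63% of all, and a TATA box was in Fosb, Junb and Klf4 and in 14.2% of all. The 4 windows printed here set Klf4, the gene with the most negative difference between the groups, beside 3 genes that varied together across libraries. Over all pairs of the 10 genes the median r was 0.64 with Mn-exposed 14 and 0.06 without it. That median does not speak for each pair. Egr2 and Nr4a1 also deviated alike in control 1 (-0.43 and -0.41) and control 4 (0.34 and 0.52), though not in control 2 (0.08 and -0.11). Fosb, not printed, had no CRE, CArG box or EGR match. Within groups it also varied with Egr2 (r 0.83) and Nr4a1 (0.82), and less with Dusp1 (0.35). A link between motifs and joint variation was not tested. Capitals mark the motif matches on either strand. Egr2 is at chr20:21054392-21054691 on the minus strand, Nr4a1 at chr7:134259888-134260187 on the plus strand, Dusp1 at chr10:17184603-17184902 on the plus strand and Klf4 at chr5:75078543-75078842 on the minus strand.
Egr2: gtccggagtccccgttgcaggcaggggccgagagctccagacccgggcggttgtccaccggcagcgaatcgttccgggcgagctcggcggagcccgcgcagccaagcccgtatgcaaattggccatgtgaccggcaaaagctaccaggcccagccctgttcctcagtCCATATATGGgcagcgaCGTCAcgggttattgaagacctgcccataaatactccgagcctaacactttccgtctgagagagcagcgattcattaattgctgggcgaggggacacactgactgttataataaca
Nr4a1: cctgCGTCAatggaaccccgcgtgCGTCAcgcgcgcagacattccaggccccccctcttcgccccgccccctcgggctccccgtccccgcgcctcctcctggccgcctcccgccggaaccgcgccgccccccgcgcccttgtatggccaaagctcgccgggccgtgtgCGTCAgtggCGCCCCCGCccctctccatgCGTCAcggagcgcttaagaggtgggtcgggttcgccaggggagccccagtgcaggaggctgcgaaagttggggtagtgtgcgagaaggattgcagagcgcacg
Dusp1: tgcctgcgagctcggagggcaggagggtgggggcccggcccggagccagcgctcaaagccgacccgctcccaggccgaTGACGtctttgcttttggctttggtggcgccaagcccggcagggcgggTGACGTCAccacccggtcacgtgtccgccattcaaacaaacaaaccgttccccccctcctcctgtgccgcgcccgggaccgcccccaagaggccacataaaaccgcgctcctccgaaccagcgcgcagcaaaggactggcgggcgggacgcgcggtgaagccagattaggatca
Klf4: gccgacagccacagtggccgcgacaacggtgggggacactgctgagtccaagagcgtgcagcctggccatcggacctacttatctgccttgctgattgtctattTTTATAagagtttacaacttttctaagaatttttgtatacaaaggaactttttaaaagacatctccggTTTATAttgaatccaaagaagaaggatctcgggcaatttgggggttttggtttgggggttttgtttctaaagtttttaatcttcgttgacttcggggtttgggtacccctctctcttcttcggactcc
In Egr2 the CArG box spans positions -83 to -74 from the RefSeq start and is followed by a CRE core at -66 to -62. Egr1 held CArG boxes at -105 to -96 and at -83 to -74, the latter at the same distance as in Egr2, and also a CRE core at -66 to -62. Nr4a1 held 4 CRE cores, at -246 to -242, -226 to -222, -82 to -78 and -53 to -49, and its EGR site at -73 to -65 lies between the last of them. The full CRE of Dusp1 lies at -124 to -117. Klf4 held TATA box letters at -146 to -141 and -78 to -73 and none of the other motifs. These matches in Klf4, and the TATA box match in Fosb, were on the strand opposite to the gene. The Klf4 and Fosb windows also had the lowest GC content of the 8, at 45% and 47.7%, against 59% to 72.3% in the other 6 and a median of 51.7% over all windows. These are matches of letters, not measured binding. Whether each RefSeq start is one used in the striatum was not tested. A motif or GC content missing from a window may therefore lie elsewhere at the gene.

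**Figure D1:**
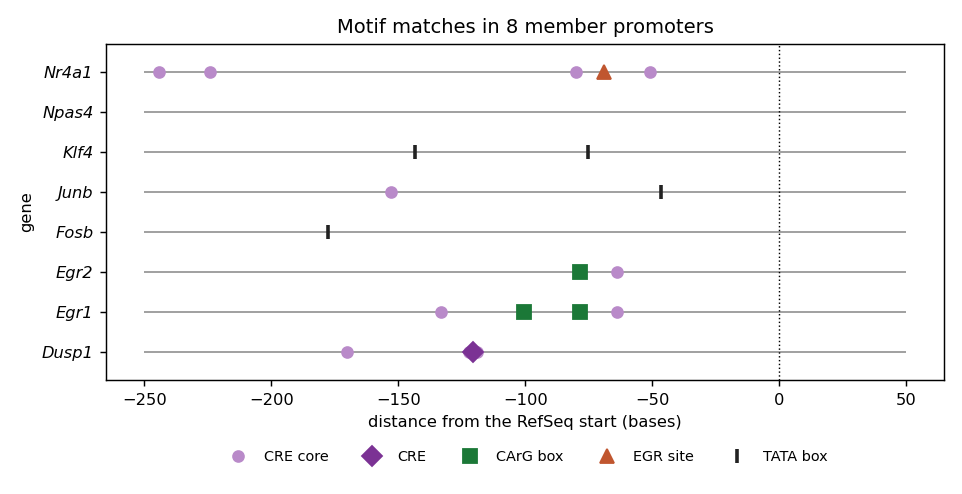
Motif matches in the promoter windows of 8 genes, plotted by distance in bases from the RefSeq start (dotted line). Markers show CRE cores, the full CRE, CArG boxes, EGR sites and TATA boxes on either strand. Egr1 and Egr2 share a CArG box and a CRE core at the same distances, and Npas4 had no match in its window.

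Among the zinc finger transcription factors, Klf4 had the largest difference. Klf4 (ENSRNOG00000016299, chr5:72283313-72287669 on the minus strand, 5 merged exons) is a Krüppel-like factor best known for its part in pluripotency and in the differentiation of vessel and epithelial cells. It stood at 27, 15.3 and 18.5 CPM in control 1, 2 and 4. The level was 6.76, 5.81 and 5.68 CPM in Mn-exposed 13, 14 and 17. All 3 Mn-exposed libraries lay far below all 3 controls and close to each other, with a coefficient of variation (CV) of 9.74% against 29.9% in controls. The means were 20.3 ± 6.06 and 6.08 ± 0.592 CPM (SD, n = 3 each), and the fitted log2 fold change was -1.74 (SE 0.23), or 3.33-fold lower. Without any 1 library the log2 fold change of Klf4 stayed between -1.90 and -1.48, as its separated groups make likely.

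Egr1 and Egr2, zinc finger factors induced by synaptic activity and growth factors, had groups that overlapped. Egr1 (ENSRNOG00000019422, chr18:27657628-27661429 on the plus strand, 2 merged exons) stood at 99.6, 203 and 222 CPM in control 1, 2 and 4. The Mn-exposed libraries 13, 14 and 17 stood at 92.1, 242 and 119 CPM. Its groups overlapped widely: Mn-exposed 14 was the highest of the 6 libraries, and control 1 was close to the lowest. The means were 175 ± 65.9 and 151 ± 79.8 CPM (SD, n = 3 each), with a log2 fold change of -0.21 (SE 0.43). Egr2 (ENSRNOG00000000640, chr20:22454463-22459025 on the minus strand, 2 merged exons) stood at 10, 14.2 and 17.0 CPM in controls and at 4.29, 13.5 and 4.56 CPM in Mn-exposed 13, 14 and 17. Mn-exposed 13 and 17 lay below every control, and Mn-exposed 14 lay within the range of the controls. The log2 fold change of Egr2 was -0.88 (SE 0.47), and -1.63 without Mn-exposed 14.

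Arc (ENSRNOG00000043465, chr7:115907097-115910541 on the minus strand, 3 merged exons) codes for a capsid-forming protein that acts at the postsynaptic side in the removal of AMPA receptors, and its transcripts are carried into dendrites. It stood at 234, 216 and 281 CPM in control 1, 2 and 4, against 60.9, 200.2 and 73.1 CPM in the Mn-exposed libraries 13, 14 and 17. The groups did not overlap, but by a narrow margin at Mn-exposed 14, while the other Mn-exposed libraries were far lower. The means were 243 ± 33.5 and 111 ± 77.1 CPM (SD, n = 3 each), a log2 fold change of -1.13 (SE 0.44), or 2.18-fold lower, and -1.85 without Mn-exposed 14. Klf4 and Arc were the 2 of 10 genes whose groups did not overlap. Over all genes fitted, 5.48% had Mn-exposed libraries all below the controls and 6.6% all above. Nothing is read from the count of 2, since this contrast was in view when the genes were chosen.

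The AP-1 subunits, which pair as Fos or Fosb with a Jun protein to bind DNA, had groups that overlapped in every case. Fos (ENSRNOG00000008015, chr6:109300433-109303299 on the plus strand, 4 merged exons) stood at 16.9, 11.7 and 10.6 CPM in control 1, 2 and 4, against 5.21, 23.8 and 5.64 CPM in the Mn-exposed libraries 13, 14 and 17. The Mn-exposed libraries enclosed the controls: Mn-exposed 13 and 17 were lower than every control and Mn-exposed 14 was higher than every control. The log2 fold change of -0.17 (SE 0.59) thus had no settled sign: it was -1.25 without Mn-exposed 14 and positive, at 0.06, 0.16 and 0.16, without control 1, Mn-exposed 13 or Mn-exposed 17. Fosb (ENSRNOG00000046667, chr1:80214494-80221710 on the minus strand, 4 merged exons) is a member of the Fos family whose truncated form is stable and builds up in the striatum under repeated stimulation. Its level stood at 8.11, 13.2 and 13.9 CPM in controls and at 13.5, 19.4 and 13.7 CPM in Mn-exposed 13, 14 and 17. Control 1 was the low library here and Mn-exposed 14 the high one, and the other 4 were nearly equal (log2 fold change 0.40, SE 0.25). The counts are per gene and do not part full-length from truncated Fosb. Junb (ENSRNOG00000042838, chr19:26092974-26094756 on the minus strand, 1 merged exon) codes for a Jun protein from a gene without introns. It stood at 68.5, 63.0 and 70.3 CPM in controls and at 49.1, 67.2 and 45.3 CPM in Mn-exposed libraries. Junb was the steadiest of the 10 genes among controls (CV 5.68%), with Mn-exposed 14 inside the range of the controls and the other Mn-exposed libraries below it (log2 fold change -0.32, SE 0.16).

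Npas4 (ENSRNOG00000020009, chr1:220261008-220265772 on the minus strand, 8 merged exons) codes for a bHLH-PAS factor that responds to calcium entry in neurons and shapes inhibitory synapses. It stood at 10.7, 7.01 and 4.61 CPM in control 1, 2 and 4, against 3.38, 20.7 and 13.4 CPM in the Mn-exposed libraries 13, 14 and 17. Npas4 was the most scattered gene of the set: the Mn-exposed libraries included the lowest and the highest of the 6, which differed 6.11-fold. Its log2 fold change of 0.75 (SE 0.61) was the most positive of the 10, and 0.20 without Mn-exposed 14. Nr4a1 (ENSRNOG00000007607, chr7:142905758-142920216 on the plus strand, 8 merged exons), an orphan nuclear receptor also called Nur77, stood at 66.7, 82.6 and 127 CPM in controls and at 30.7, 81.7 and 41.7 CPM in Mn-exposed libraries. Dusp1 (ENSRNOG00000003977, chr10:16970626-16973418 on the plus strand, 4 merged exons), a phosphatase that switches off MAP kinases, stood at 54, 31.5 and 61.5 CPM in controls and at 18.1, 45.5 and 18.6 CPM in Mn-exposed libraries. In Nr4a1 and Dusp1 alike, Mn-exposed 13 and 17 lay below every control and Mn-exposed 14 within the controls. Their log2 fold changes were -0.84 (SE 0.39) and -0.84 (SE 0.41), and -1.34 and -1.41 without Mn-exposed 14.

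**Figure D2:**
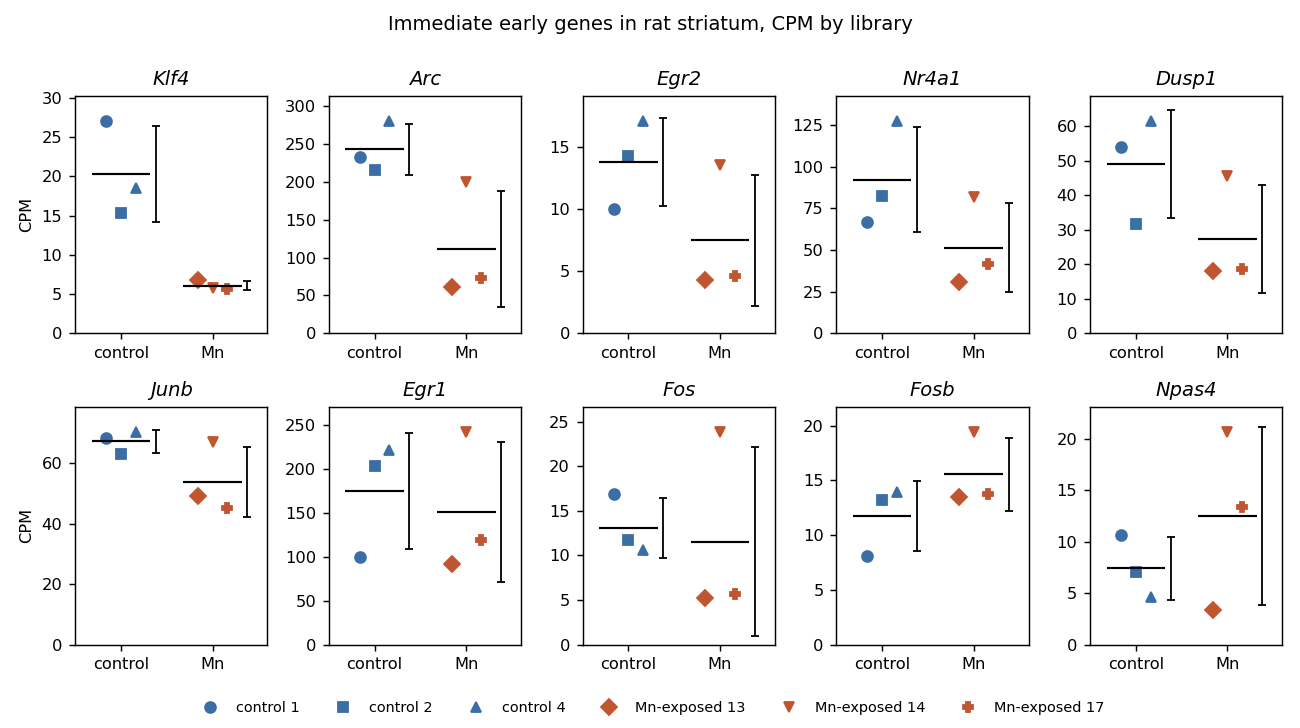
CPM of each of the 10 genes (one panel per gene, vertical axis from 0) in the 3 control and 3 Mn-exposed libraries; points are libraries, lines the group means and bars 1 SD. In Klf4 the Mn-exposed libraries sit together at 5.68 to 6.76 CPM, and in the other genes Mn-exposed 14 sits above Mn-exposed 13 and 17.

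The fitted differences of the 10 genes had a median log2 fold change of -0.58, from -1.74 to 0.75, against a median of 0.02 over all genes fitted. There were 8 genes below 0 and 2 above (Fosb and Npas4), where 47.4% of all genes fitted were below 0. Klf4, Arc, Egr2, Nr4a1 and Dusp1 lay outside the central 95% of all genes, which ran from -0.75 to 1.14. In the fits over all genes, edgeR's quasi-likelihood test called 0 of the 10 after Benjamini-Hochberg adjustment (0% of all genes), limma-voom called 0 (0% of all genes), and DESeq2 called 1 of the 10, Klf4, as lower (0.254% of the genes it tested). An unadjusted edgeR p under 0.05 with a lower level was found for 2 of 10 (3.21% of all genes). Nothing is read from these counts. Without Mn-exposed 14 the median of the 10 was -1.30, and 7 of 10 had all Mn-exposed libraries below the controls, where 8.46% of all genes did, while 0 of 10 had them all above, where 12.4% did. Without control 1 and Mn-exposed 13, 4 of 10 (Klf4, Arc, Egr2 and Nr4a1) lay wholly below the controls and 1, Npas4, wholly above, where 25.8% and 25% of all genes did. Mn-exposed 14 was above the Mn-exposed mean in 9 of the 10 genes, so leaving it out lowers their Mn-exposed levels by construction. Nothing is read from the counts with libraries left out either, since they use the same contrast.

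**Figure D3:**
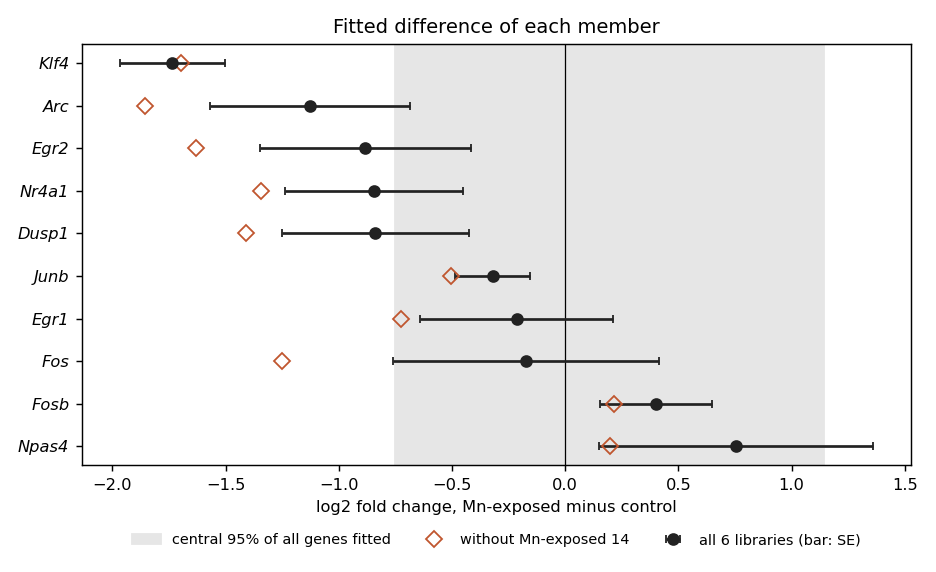
Fitted log2 fold change of each gene, Mn-exposed minus control (filled circles, bars 1 SE), with the same fit without Mn-exposed 14 (open diamonds) and the central 95% of all genes fitted (grey band, -0.75 to 1.14). Leaving out Mn-exposed 14 moved Fos from -0.17 to -1.25 and left Klf4 near its value.

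The 3 Mn-exposed libraries differed from one another in these genes. In Mn-exposed 13, 9 of the 10 were below the lowest control, where 18.7% of all genes fitted were, and the exception was Fosb. In Mn-exposed 17, 7 of the 10 were below the lowest control (30.8% of all genes) and 1, Npas4, was above the highest (32.1% of all genes). In Mn-exposed 14, 2 of the 10, Klf4 and Arc, were below the lowest control (27.2% of all genes), and 4, Fos, Fosb, Egr1 and Npas4, were above the highest (33.2% of all genes). Both counts of Mn-exposed 14 are near the shares over all genes. The counts of all 3 libraries use the contrast in view when the genes were chosen, so nothing is read from them. Summed over the 10 genes, CPM was 595, 657 and 826 in control 1, 2 and 4, against 284, 719 and 340.3 in the Mn-exposed libraries 13, 14 and 17. Egr1 and Arc made up 60.3% of that sum in controls. The sums averaged 693 ± 120 in controls and 448 ± 237 in Mn-exposed libraries (SD, n = 3 each), and Mn-exposed 14 lay within the range of the controls. Mn-exposed 14 was also the library with the lowest mtDNA share (8.64%). On the first principal component of the 1000 most variable genes it had the value of largest size, with the sign set to make it positive. The values were -24.2, 35.9 and 20.8 in Mn-exposed 13, 14 and 17, and -25.3, -6.3 and -0.869 in control 1, 2 and 4. The part of these library differences in the gene levels was not tested. With mtDNA counts left out of the totals and the fit, the median log2 fold change of the 10 genes was again -0.58.

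Within groups, the SD of log2 CPM had a median of 0.66 over the 10 genes and 0.25 over all genes fitted. Npas4 (SD 1.05) and Fos (SD 0.91) were at the 97.7th and 96.5th percentile of all genes, and 6 of the 10 were above the 90th. Junb (SD 0.22, percentile 44.3), Klf4 (SD 0.31, percentile 61.1) and Fosb (SD 0.37, percentile 69.8) were the steadier ones. Taken by group, that SD was larger in Mn-exposed than in control libraries for 8 of the 10 genes, where 53.9% of all genes fitted had the larger SD there. It was 1.23 in Mn-exposed libraries and 0.36 in controls for Fos, 0.93 and 0.39 for Egr2, and 0.92 and 0.19 for Arc. In Fos, Egr2 and Arc, Mn-exposed 14 stood 1.42, 1.07 and 1.06 above the Mn-exposed mean on the log2 scale. Mn-exposed 13 and 17 were both below that mean, so these SDs rest largely on 1 library. The 8 genes share the same libraries and are not separate observations. Klf4 (0.14 and 0.42) and Fosb (0.29 and 0.43) had the smaller SD in Mn-exposed libraries.

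In each Mn-exposed library 9 of the 10 genes deviated from the group mean in the same direction. The controls were more mixed, with 5, 3 and 7 of the 10 above the mean in control 1, 2 and 4. In Mn-exposed 14, 9 of 10 genes were above the Mn-exposed mean, Klf4 being the exception, and the average deviation was 0.77 on the log2 scale. In Mn-exposed 13 the average deviation was -0.53 with all but Klf4 below, and in Mn-exposed 17 it was -0.24 with all but Npas4 below. Deviations cancel out within a group, so a high Mn-exposed 14 leaves the other Mn-exposed libraries low on average by construction. The average deviation was -0.04, -0.08 and 0.13 in control 1, 2 and 4. Opposite signs cancel in these averages, so they do not measure how far single genes deviated. Control 1 combined low Egr1 (-0.73), Fosb (-0.49) and Egr2 (-0.43) with high Npas4 (0.60), Klf4 (0.46) and Fos (0.41), so its genes did not move as a block.

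**Figure D4:**
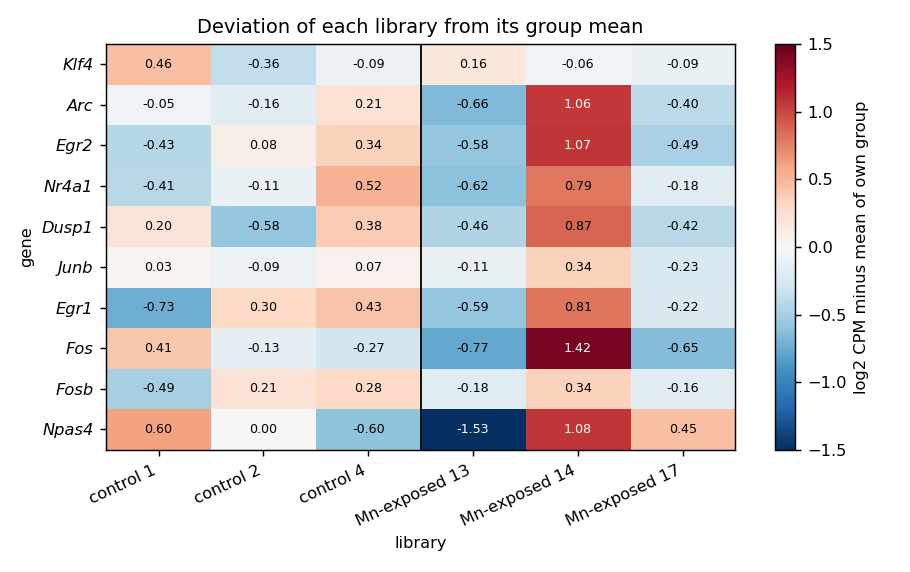
Log2 CPM of each gene (rows) in each library (columns) minus the mean of the library's own group, with controls left of the black line and Mn-exposed libraries right of it. Mn-exposed 14 is above its group mean in every gene but Klf4, where the 3 Mn-exposed libraries run from -0.09 to 0.16.

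Over the 6 libraries, with group means removed, the Pearson r of the 45 pairs of genes had a median of 0.64, from -0.79 to 0.96, and 39 pairs were positive. Over all 116304126 pairs of genes fitted the median was 0.00. An r above 0.9 was reached by 22.2% of the member pairs and 3.49% of all pairs. These values rest on 6 libraries that share their scaling, so no p is given. Arc had the highest median r with the other genes (0.90), followed by Egr2 (0.83), Nr4a1 (0.78), Junb (0.77) and Dusp1 (0.76). Fosb and Egr1 formed the closest pair (0.96). Klf4 had a median r of -0.14 and opposed Fosb (-0.79) and Egr1 (-0.71). The median rested on 1 library: without Mn-exposed 14 it was 0.06 and 24 of the 45 pairs were positive. This does not hold for each pair. Fosb and Egr1 also deviated alike in control 1 (-0.49 and -0.73), control 2 (0.21 and 0.30) and control 4 (0.28 and 0.43). The genes outside the set whose deviations were most like the mean of the 10, over the same 6 libraries, were ENSRNOG00000022136 (r = 0.999) and ENSRNOG00000014828 (r = 0.997). They stood at 1.95 and 24.8 CPM in Mn-exposed 14, against at most 0.71 and 20.5 CPM in the other 5 libraries. An r above 0.9 with that mean was reached by 426 other genes, or 2.79%.

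**Figure D5:**
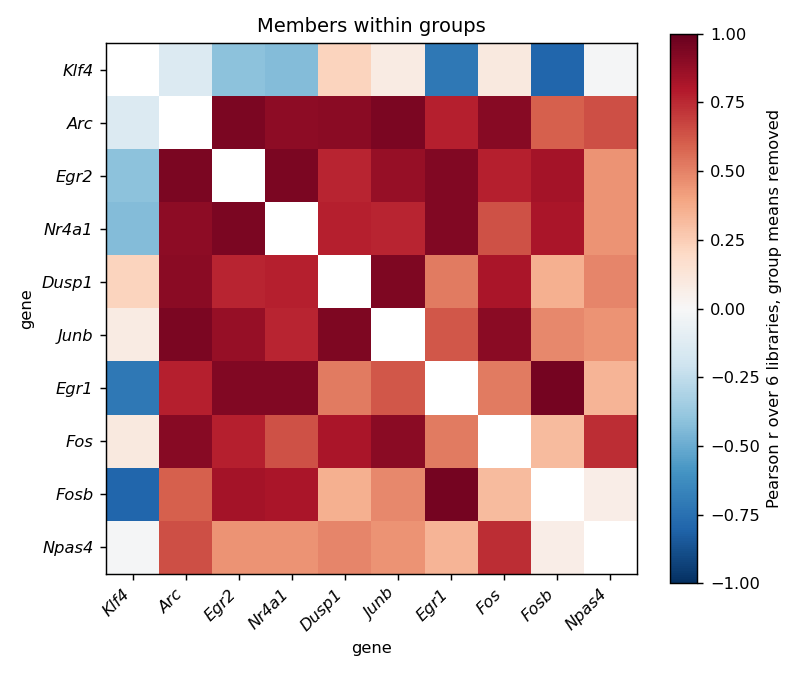
Pearson r between the genes over the 6 libraries after removing the group means, on a colour scale from -1 to 1. Klf4 is the row with mostly negative values (down to -0.79), and the other genes are positive with each other, up to 0.96 for Fosb and Egr1.

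Ratios between genes of the same library do not depend on library scaling. Of the 45 ratios among the 10 genes, 17 had groups that did not overlap, where 13.1% of all pairs of genes fitted did, and nothing is read from this count, since it uses the same contrast. Klf4 and Arc were each lower in Mn-exposed libraries relative to 5 of the 9 other genes. Fosb was higher relative to 6 of 9, Egr1 to 4 and Npas4 to 3. Nothing is read from these counts by gene either, which use the same contrast and have no share over all genes beside them. As an example chosen after the values were seen, the counts of Arc were 2.34, 1.06 and 1.26 times those of Egr1 in control 1, 2 and 4. The same ratio was 0.661, 0.828 and 0.616 in Mn-exposed 13, 14 and 17. Other ratios overlapped: the counts of Fos were 2.09, 0.881 and 0.758 times those of Fosb in controls and 0.385, 1.23 and 0.411 times in Mn-exposed 13, 14 and 17. The ratio of Npas4 to Arc counts, chosen in the same way, was 0.0457, 0.0325 and 0.0164 in controls and 0.0556, 0.103 and 0.184 in Mn-exposed libraries.

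Per kilobase of exon, Arc was the most abundant of the 10 in controls, at 80.4 ± 11.1 CPM per kilobase (SD, n = 3), at the 93.9th percentile of all genes fitted. The level per kilobase then fell through Egr1 (55.9 ± 21.1), Junb (37.7 ± 2.15), Nr4a1 (34.7 ± 11.8) and Dusp1 (25.3 ± 8.04). Klf4 (8.57 ± 2.56) and Fos (8.21 ± 2.14) stood near the middle of all genes. Egr2 (4.26 ± 1.10), Fosb (3.14 ± 0.850) and Npas4 (3.02 ± 1.24) were lowest, at the 34.9th to 28.4th percentile. Ranges over the 3 controls did not overlap between the neighbours Arc and Egr1, Dusp1 and Klf4, and Fos and Egr2. The other neighbours in that order overlapped. In Mn-exposed libraries the order per kilobase began with Egr1 (48.2 ± 25.5), Arc (36.8 ± 25.5) and Junb (30.2 ± 6.56), whose ranges overlapped. By mean, Klf4 was next to last there, at 2.57 ± 0.250 CPM per kilobase, above Egr2 at 2.31 ± 1.62. The range of Klf4 over those libraries (2.40 to 2.86) lay inside those of Egr2 (1.33 to 4.18) and Npas4 (1.37 to 8.40), so their order is not settled.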

How the data were processed

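Poly(A)-selected RNA was sequenced from 6 striatum libraries. The deposited counts are whole reads per Ensembl gene, not normalised. Per the submitters' processing notes, the authors used STAR 2.5.2b, bcl2fastq 2.17 and DESeq2 with the build Rnor_6.0. How reads were counted (tool, strand, reads with several matches) is not stated there. A table of the whole series differed from the files of single samples in 0 cells.

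Counts were filtered with filterByExpr (15252 genes kept), scaled with TMM and fitted by robust quasi-likelihood without a block (edgeR 4.0.16, R 4.3.3). P-values were adjusted after Benjamini and Hochberg, with 0.05 as the threshold. The SE of a log2 fold change is its size over the square root of F. Log2 CPM used a prior count of 0.5. Alternatives were other scalings and filters, DESeq2 1.42.0, limma-voom (limma 3.58.1), the ID number as a block, mtDNA counts left out, the gene span trend removed, and libraries left out. The genes, lists and settings were chosen with earlier results of these data known. The genes named are the 10 members and the 2 others whose within-group deviations correlate best with the members' mean. Of 32552 gene IDs, 0 were paired with a symbol by the RefSeq table. Promoter sequences are from RefSeq (GRCr8), matched by symbol.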

Additional observations from a re-analysis of the deposited data

How the results depend on the processing

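The median log2 fold change of the 10 genes (-0.58) stayed negative under all 16 alternatives, and with 1 replicate left out it was lowest, at -1.30, without Mn-exposed 14 and highest, at -0.41, without Mn-exposed 17. The number of genes whose groups did not overlap (2) was 5 without control 1 and Mn-exposed 13 together (4 lower and 1 higher, where 25.8% and 25% of all genes were), and 2 to 7 with 1 replicate left out (7 lower without Mn-exposed 14, where 8.46% of all genes were). It was 2 to 4 without any other single library. The log2 ratio of summed CPM (-0.63) was -1.15 to -0.40 with 1 replicate left out. The median pairwise r (0.64) was 0.058 to 0.90 with 1 replicate left out, lowest without Mn-exposed 14 and highest without control 1. Fewer libraries enter these fits, and no other cause was tested. Of the 160 values of single genes under the alternatives, 152 moved by less than 1 within-group SD, 3 moved further, all without Mn-exposed 14 (Fos, Egr2 and Arc), and 5 changed sign. The sign changes were in Fos (-0.17), which was 0.37 without control 1 and Mn-exposed 13 and -1.25 to 0.16 with 1 replicate left out, and in Egr1 (-0.21), which was -0.73 to 0.028 with 1 replicate left out. Scaling by library size alone moved the median of all genes fitted from 0.02 to 0.12 and that of the 10 genes to -0.47.

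The ID numbers in the labels run from 1 to 3 in each group. Deviations of same-numbered libraries correlated over genes at 0.409, 0.098 and 0.21, and not every pair passed the minimum of 0.1 set for pairing (the second pair reached 0.109 with a prior count of 2), so the numbers were not taken as pairs. With the ID number as a replicate block the median log2 fold change was -0.71 and the median pairwise r 0.79, and edgeR's adjusted calls stayed at 0. Mn-exposed 14 and 17 each correlated better with a control of another number (0.149 and 0.261). The lowest count of the 10 genes in a library was 74, where counting error is 11.6%.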
